A study of Mus musculus with 30 samples.

Results

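Isolated CpGs were those on chromosomes 1 to 19 that carried 10 or more reads in every one of 30 sperm libraries, both strands summed, and had no other CpG with any read in any library within 50 bp on either side. There were 31293 of them among 414071 CpGs that met the same coverage rule, a share of 7.56%. The other 382778 CpGs had a neighbour within 50 bp and are called clustered. Each CpG was placed within 1 kb of the start or end of a RefSeq gene (2996 isolated CpGs), elsewhere inside a gene body (15398) or between genes (12899). The median distance from an isolated CpG to the nearest CpG seen in any library was 108 bp, with quartiles of 72 and 182 bp.

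The libraries were made by reduced representation bisulfite sequencing, which cuts genomic DNA with an enzyme, keeps short fragments and converts unmethylated cytosines so that each read reports methylation. Mature sperm came from both cauda epididymides of male C57BL/6J mice that were 7 weeks old at the start. The 15 cadmium mice were given reverse-osmosis (RO) water holding 0.9 ppm cadmium, prepared from cadmium chloride, and took in 0.68 mg of the metal per kg on average. The 15 vehicle mice drank the same water without the metal, and all 30 were housed singly on the same low-fat diet and were labelled as 9 weeks after treatment. The comparison asks whether long exposure to this toxic metal alters methylation in sperm.

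In mammals, cytosines followed by guanine are methylated over most of the genome. Dense groups of them, called CpG islands, lie at many gene starts and stay unmethylated, whereas CpGs that stand alone in the sequence are usually methylated. Sperm DNA is packed largely by protamines and receives its methylation before birth, in the precursors of the spermatogonia. The level of a CpG in a library is the fraction of its reads that were methylated, given here in percent, and a difference between levels is given in percentage points.

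Total coverage was 53591172 to 94090975 reads summed over cytosines per library, and an isolated CpG had a median of 72 reads in a cadmium library and 78 reads in a vehicle library. A control sequence that is fully methylated read 97.9% to 98.7%, and an unmethylated one read 0.074% to 0.666%. The share of coverage on the mitochondrial genome, 0.0127% to 0.119%, is returned to below because isolated CpGs moved with it. Sperm lacks the maternal methylation of imprinted genes. For each listed gene of this kind, the start or end with the most covered CpGs within 1 kb was taken. Whether it held the maternally methylated region was not checked. These gene ends averaged 13.9% ± 5.26 in cadmium libraries and 12.1% ± 7.86 in vehicle libraries (SD, n = 15 each, two-sided permutation test p = 0.45). This mean covered 10 of 18 listed gene ends, from Grb10 at 0.877% to Nap1l5 at 18.9%. Peg3 and Usp29 shared their CpGs, Mest at 28.5% and Plagl1 at 21.9% lay above the limit of 20% set for the list, and H19, methylated in sperm, read 92.6%. Cadmium replicate 9 and vehicle replicate 15 had the lowest means over clustered CpGs, 22.9% and 22.7%. The level and the deviation between groups, the isolated minus clustered levels and the relations to the mitochondrial share are also given without them. This alternative was chosen after seeing the data.

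The sequence around isolated CpGs could be read where a promoter window of the RefSeq GRCm38.p6 reference held it, that is from 250 bases before to 50 bases after a gene start. All 255 isolated CpGs in such windows read CG in the reference, and all 255 lay inside the letters CCGG, against 22.9% of 55582 clustered CpGs in the windows. CCGG is palindromic, so both strands are covered by this search, and 53.1% of the 32619 promoter windows hold it somewhere. It is the site of MspI, the enzyme usual in this assay, although no source used here names the enzyme. Of 127 isolated CpGs with 50 bases on either side before the gene start, 89 (70.1%) had no other CG in those 102 bases of reference. The remaining ones had a CG in the reference that no library reported, so isolation is a property of what the libraries covered as well as of the sequence.

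The windows shown first are those of the isolated CpGs with the highest mean level among the 89, printed 5′ to 3′ on the strand of the gene with the measured CpG in capitals.
Gm31160, chr5:137179256-137179357, minus strand, GRCm38.p6: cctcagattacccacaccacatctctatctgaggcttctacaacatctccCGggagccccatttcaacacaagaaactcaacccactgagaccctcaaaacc
Kcnj12, chr11:61065672-61065773, plus strand, GRCm38.p6: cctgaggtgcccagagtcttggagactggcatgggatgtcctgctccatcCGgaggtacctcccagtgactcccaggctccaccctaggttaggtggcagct
Gm19402, chr10:77690879-77690980, minus strand, GRCm38.p6: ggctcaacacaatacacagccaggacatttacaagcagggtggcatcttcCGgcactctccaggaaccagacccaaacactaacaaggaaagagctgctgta
These CpGs averaged 99.1%, 98.98% and 98.5% over the 30 libraries and lay 143, 82 and 120 bp before the start. Kcnj12 encodes an inward-rectifying potassium channel, and its CpG counted as gene body because the annotated gene extends past the start of the window.

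The isolated CpGs with the lowest mean level among the 89 are shown to set beside them, with the same marking.
Thap8, chr7:30279851-30279952, plus strand, GRCm38.p6: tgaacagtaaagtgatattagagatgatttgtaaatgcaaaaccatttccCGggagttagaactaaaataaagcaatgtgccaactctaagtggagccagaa
Washc1, chr17:66111401-66111502, plus strand, GRCm38.p6: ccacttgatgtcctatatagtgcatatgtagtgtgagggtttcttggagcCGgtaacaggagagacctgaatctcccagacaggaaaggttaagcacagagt
Fcho2, chr13:98815493-98815594, minus strand, GRCm38.p6: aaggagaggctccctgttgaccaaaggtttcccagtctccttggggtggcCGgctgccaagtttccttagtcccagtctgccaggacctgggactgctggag
These averaged 0.278%, 0.37% and 0.417% and lay 193, 95 and 95 bp before the start. Washc1 belongs to the complex that nucleates actin on endosomes, and Fcho2 starts clathrin-coated pits. Both sets were chosen to hold a single CG in 102 bases, and all 6 lie at a CCGG.

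The isolated CpGs with the largest SD over the 30 libraries among the 89 form the last set.
Gm39786, chr2:30995645-30995746, minus strand, GRCm38.p6: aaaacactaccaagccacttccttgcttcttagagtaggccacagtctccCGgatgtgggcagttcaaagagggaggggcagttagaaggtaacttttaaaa
Gramd2, chr9:59707424-59707525, plus strand, GRCm38.p6: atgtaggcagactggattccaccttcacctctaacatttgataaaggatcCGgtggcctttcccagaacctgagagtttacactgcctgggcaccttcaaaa
Slamf8, chr1:172590597-172590698, minus strand, GRCm38.p6: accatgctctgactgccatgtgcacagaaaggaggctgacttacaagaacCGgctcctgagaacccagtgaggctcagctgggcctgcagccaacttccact
Their SDs were 39.2, 36.7 and 31.1 points around means of 52.4%, 66.7% and 62.0%, and each ranged from 0% to 100% over the 30 libraries. Slamf8 encodes a membrane receptor of the SLAM family found on myeloid cells.

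Isolated CpGs were mostly methylated outside gene ends. Over all 31293, the mean level in a library was 78.0% ± 1.85 in cadmium mice and 77.9% ± 2.21 in vehicle mice (SD, n = 15 each). Of the isolated CpGs, 67.0% averaged 80% or more over the 30 libraries, 25.5% averaged 20 to 80%, and 7.49% averaged under 20%. Only 51 were at 100% in every library and 46 at 0% in every library. Of clustered CpGs, 18.3% averaged 80% or more, 11.8% averaged 20 to 80%, and 69.9% averaged under 20%.

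**Figure D1:**
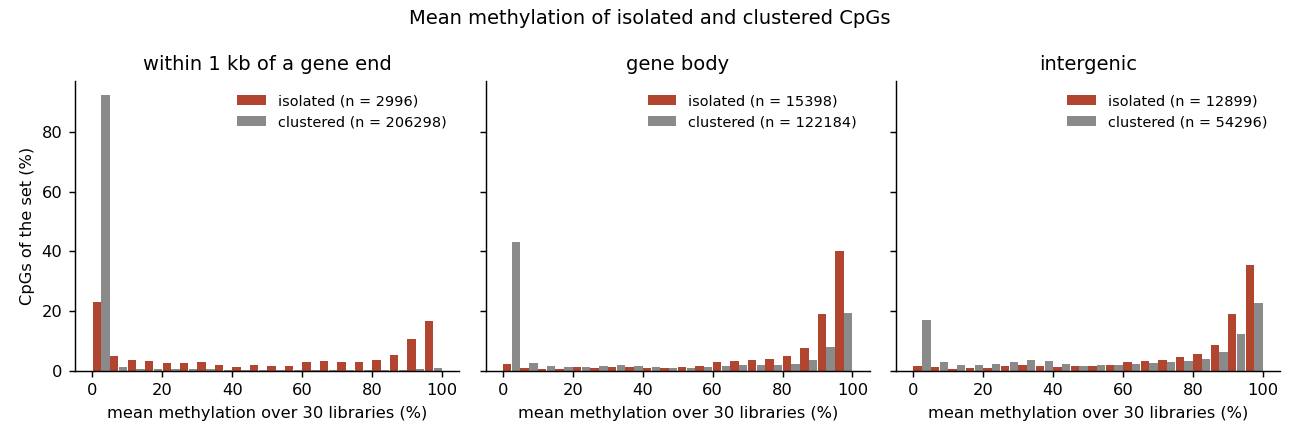
Histograms of the mean level of single CpGs over 30 libraries, in steps of 5 points on the horizontal axis, with the share of each set in percent on the vertical axis, for isolated (red) and clustered (grey) CpGs in the 3 contexts. Isolated CpGs pile up near 100% in gene bodies and between genes and at both ends of the scale within 1 kb of a gene end, where 94.8% of clustered CpGs average under 20%.

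Context separated isolated CpGs into a mixed class and 2 methylated classes. Within 1 kb of a gene end they averaged 50.5% ± 1.33 in cadmium and 50.3% ± 1.29 in vehicle libraries, with 36.2% of the CpGs at 80% or more, 29.0% between 20 and 80%, and 34.7% under 20%. In gene bodies they averaged 81.6% ± 2.58 in cadmium and 81.7% ± 3.26 in vehicle libraries, and 71.6% stood at 80% or more. Between genes they averaged 80.1% ± 1.22 in cadmium and 79.9% ± 1.34 in vehicle libraries, and 68.6% stood at 80% or more. The median level was 55.5% at gene ends, 93.1% in gene bodies and 91.8% between genes.

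Isolated CpGs exceeded clustered CpGs of the same context in every library. At gene ends the isolated ones averaged 50.4% and the clustered ones 4.18%, a difference of 46.2 points (SD 1.34, n = 30 libraries, 95% interval 45.7 to 46.7). In gene bodies the averages were 81.6% for isolated and 41.9% for clustered CpGs, 39.7 points apart (38.8 to 40.6). Between genes they were 80.01% and 58.6%, 21.4 points apart (20.6 to 22.1). The isolated CpGs were higher in 30 of 30 libraries in each context, and the two-sided sign-flip permutation test gave p = 1e-05 for each, the smallest value that 100000 resamples can give. Without cadmium replicate 9 and vehicle replicate 15 the differences were 46.5, 39.8 and 21.4 points. A distance to the next CpG chose the sets, and the level was not used in the choice.

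The level rose with distance to the nearest CpG, on both sides of the 50 bp limit. CpGs whose nearest neighbour was 1 to 10 bp away averaged 13.5%, those at 41 to 50 bp averaged 64.3%, those at 51 to 75 bp averaged 73.2%, and those beyond 500 bp averaged 87.2% ± 0.685 (SD over 30 libraries, 1183 CpGs). At gene ends the isolated CpGs went on rising, with 45.8% at 51 to 75 bp, 57.6% at 201 to 300 bp and 74.4% beyond 500 bp, the last on 46 CpGs. In gene bodies the same steps read 78.0%, 85.5% and 89.4%. Just inside the limit, 1983 CpGs at 51 to 55 bp averaged 69.5%, and just outside it, 5145 CpGs at 46 to 50 bp averaged 63.3%. Just inside the coverage limit, CpGs of 10 or 11 reads in their lowest library averaged 79.3%, and those of 8 or 9 reads averaged 79.7%.

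**Figure D2:**
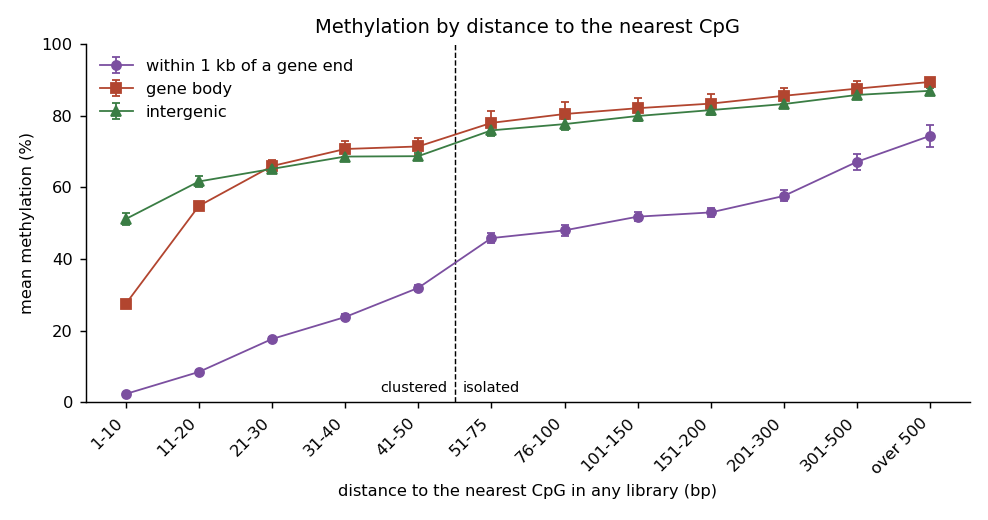
Mean level in percent by distance to the nearest CpG in any library, in bp, for the 3 contexts. Points are means over 30 libraries of the mean level per library, bars are the SD over libraries, and the dashed line marks the 50 bp limit. The level increases along the axis in each context and is lowest at gene ends at each distance.

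Isolated CpGs with a clustered CpG close by were near that neighbour in level. There were 3922 pairs of an isolated CpG and a clustered CpG next to it, 51 to 100 bp away, among CpGs of the coverage rule. The mean levels within a pair differed by a median of 3.14 points. Isolated CpGs in these pairs were less methylated than all isolated CpGs, which averaged 78.0%. The isolated members averaged 63.7% and the clustered members 64.2%, a difference of -0.539 points (SD 0.474, n = 30 libraries, interval -0.716 to -0.361), with isolated CpGs lower in 26 of 30 libraries (sign-flip p = 1e-05). At gene ends the 701 isolated members averaged 33.4% and their neighbours 33.3% (difference 0.042 points, interval -0.182 to 0.266, adjusted p = 0.704). In gene bodies the 1956 isolated members averaged 70.8% and their neighbours 71.7%, and the isolated ones were lower in 28 of 30 libraries (difference -0.905 points, interval -1.17 to -0.642, adjusted p = 3e-05 over the 3 contexts). Between genes the averages were 69.4% and 69.7% over 1265 pairs (difference -0.294 points, interval -0.51 to -0.0777, adjusted p = 0.0133).

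Neighbouring isolated CpGs were also alike. In 1692 pairs of isolated CpGs 51 to 100 bp apart, the median absolute difference of their mean levels was 3.39 points, and 82.8% of pairs lay within 10 points. Pairs 201 to 500 bp apart differed by a median of 4.64 points, and pairs 501 to 2000 bp apart by 10.4 points, with 48.7% within 10 points. The levels of the paired CpGs correlated at r = 0.944 across the closest pairs and at r = 0.308 across the farthest ones. These are descriptions across CpG pairs, which share libraries and are not independent replicates.

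The 2996 isolated CpGs at gene ends divided by their distance from an annotated start. For 80 of them annotated starts were not used here. The 1519 that lay over 1000 bp from any start used here averaged 65.5%, against 33.9% for the 1397 within 1000 bp of a start. The difference of 31.5 points (SD 1.70, interval 30.9 to 32.2) had the same sign in 30 of 30 libraries (sign-flip p = 1e-05). Near starts, isolated CpGs at 33.9% still stood 31.8 points above the clustered ones at 2.18% (interval 31.4 to 32.1, 30 of 30 libraries, p = 1e-05). Of the isolated CpGs near a start, 52.1% averaged under 20% and 19.8% averaged 80% or more. Clustered CpGs at gene ends over 1000 bp from any start used averaged 10.9%, and 85.8% of them averaged under 20%. Starts and gene ends came from separate RefSeq sources, so some CpGs over 1000 bp from a start used may still lie near a gene start.

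The level was higher farther from the ends of genes. Isolated gene body CpGs 1001 to 5000 bp from an end of a gene averaged 73.9%, and those over 100000 bp from one averaged 87.0%. Clustered gene body CpGs at the same distances averaged 25.7% and 66.4%. Between genes, isolated CpGs read 76.5% at 1001 to 5000 bp and 83.4% beyond 100000 bp, against 44.3% and 76% for clustered CpGs. The level varied little among chromosomes, from 76.2% on chromosome 19 (903 isolated CpGs) to 80.3% on chromosome 18 (1065).

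Most isolated CpGs were read on a single strand. In 68.4% of them over 99% of the reads came from the same strand, against 31.02% of clustered CpGs. Isolated CpGs with 20 to 80% of reads on each strand, 17.5% of all, averaged 70.3%, and those read on a single strand averaged 80.7%. In gene bodies these values were 76.2% on both strands and 83.6% on a single strand. Both classes of isolated gene body CpG stood above clustered gene body CpGs of the same strand class, which averaged 29.98% on both strands and 56.5% on a single strand.

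Single isolated CpGs varied more between libraries than binomial read counting alone gives. Each mouse had 1 library, so variation between mice, between library preparations and from PCR copies cannot be told apart. Among the 7978 isolated CpGs that averaged 20 to 80%, the median SD over 30 libraries was 23.3 points, where binomial sampling of their reads gives 6.04 points, and the median ratio was 3.89. Clustered CpGs of the same range had a median SD of 22.5 points and a ratio of 3.8. Of the 7978, 28.9% were at 0% in at least 1 library and at 100% in another. Isolated CpGs that averaged 95% or more had a median SD of 5.90 points, against a binomial 1.98 points.

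The spread shrank with depth but stayed above the binomial value. Isolated CpGs of 20 to 80% with a median of 30 to 59 reads (2703 CpGs) had a median SD of 26.6 points, and 24.1% of their values were exactly 0% or 100%. Those with 60 to 119 reads (3911 CpGs) had 22.7 points, and those with 240 reads or more (360 CpGs) had 14.7 points, with 0.435% of values at 0% or 100%. The ratio to the binomial SD was 3.62, 3.95 and 6.00 in these 3 classes. Reads that are PCR copies of the same molecule are not separate molecules, so counting intervals and limits cover counting error only.

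**Figure D3:**
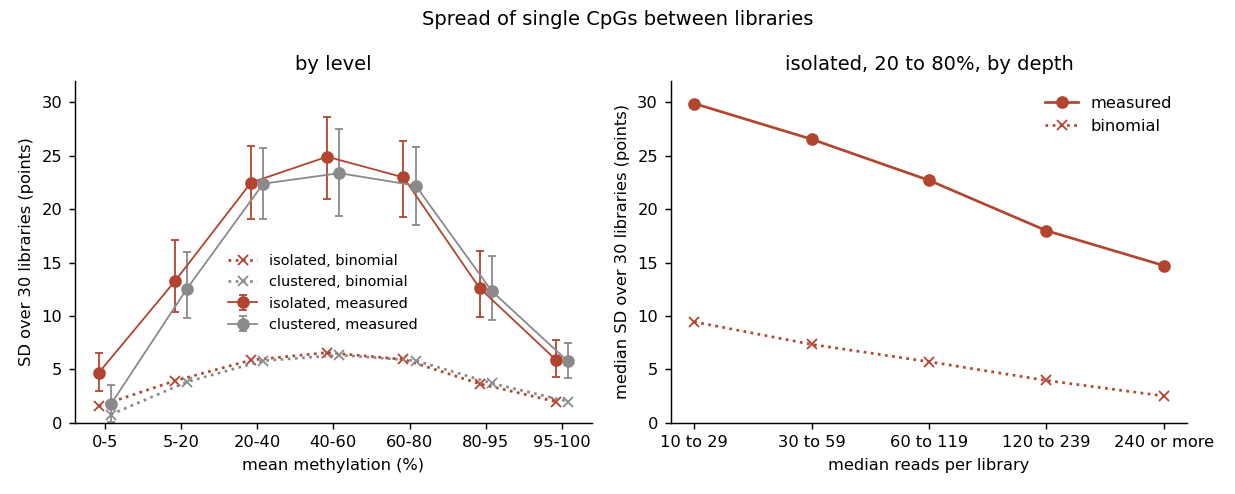
Left, median SD over 30 libraries of single CpGs, in points, by mean level in percent, for isolated (red) and clustered (grey) CpGs, with bars from the lower to the upper quartile of CpGs and crosses for the binomial SD. Right, the same for isolated CpGs of 20 to 80% by median reads per library. The measured SD of isolated CpGs peaks at 24.9 points in the 40 to 60% class and lies above the binomial SD in every class.

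The most variable isolated CpGs covered the whole scale within both groups. At gene ends the 4 with the largest SD lay near Gm39786, B3galt4, 4930554C24Rik and Pgap3. B3galt4, a galactosyltransferase of ganglioside synthesis, had its CpG 73 bp inside the gene end on chromosome 17 at 33949985 to 33949986. It read 0%, 71.7% and 100% as lowest, median and highest value in cadmium libraries and 0%, 78.4% and 100% in vehicle libraries. The CpG 52 bp inside an end of Pgap3, which remodels GPI anchors, on chromosome 11 at 98388724 to 98388725, had a median of 30.8% in cadmium and 41.9% in vehicle libraries with the same extremes. In both groups the values ran from unmethylated to fully methylated. Median depth over libraries was 27 reads at 4930554C24Rik, 29 at B3galt4, 41.5 at Gm39786 and 71 at Pgap3. Gm39786 and Pgap3 also fell with the mitochondrial share (limma adjusted p = 0.0385 and 0.00528), and B3galt4 and 4930554C24Rik did not pass that test.

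In gene bodies the most variable isolated CpGs lay in Tle3, Vangl1, Il10rb and B130024G19Rik, with SDs of 39.1 to 41.2 points. Their median depths were 32 to 77.5 reads. All 4 fell with the mitochondrial share (limma adjusted p from 0.00155 to 0.00462). Tle3, a corepressor of the Groucho family, had its CpG on chromosome 9 at 61388861 to 61388862, with 0%, 31.9% and 100% as lowest, median and highest values in cadmium libraries and 0%, 73.9% and 100% in vehicle libraries. The logistic model gave an adjusted p of 0.783 for this CpG. Vangl1, of planar cell polarity, and Il10rb, a subunit of cytokine receptors, had the same extremes in both groups. Between genes the 4 lay nearest Fam83b, Gm12446, Gm40038 and Zfp438, with SDs of 39.7 to 40.9 points and median depths of 27 to 42.5 reads. None of these 4 passed the limma test against the mitochondrial share. The CpG 29659 bp from Gm12446 on chromosome 4 at 46268965 to 46268966 averaged 42.8% ± 35.0 in cadmium and 65.7% ± 42.5 in vehicle libraries (SD, n = 15 each, adjusted p = 0.682).

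At the other end of the range were isolated CpGs that varied little or not at all. The 4 highest at gene ends lay near Gm12992, Gm36873, 4933432G23Rik and Psmb2, a proteasome subunit. The first 3 were at 100% in all 15 cadmium and all 15 vehicle libraries, over 1048 to 2486 reads in total. The one near Psmb2 was at 100% in all 15 vehicle and 14 of 15 cadmium libraries, with a lowest cadmium value of 98.7%. The lowest between genes lay nearest Impdh1, Ttll6, Gm41772 and Smad4 and were at 0% in every library. For the one 1583 bp from Impdh1, an enzyme of guanine nucleotide synthesis, 0 of 1537 reads were methylated, which allows a share of up to 0.195%. The one 6897 bp from Ttll6, a polyglutamylase of microtubules, had 0 of 1876 reads, which allows up to 0.16%.

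Cadmium and vehicle libraries did not differ in the mean level of isolated CpGs beyond the spread between mice. Over all isolated CpGs the lowest, median and highest libraries were 73.8%, 78.1% and 80.3% in the cadmium group and 73.6%, 79.2% and 80.4% in the vehicle group, so the groups overlapped throughout. Cadmium minus vehicle was 0.0485 points, with a 95% interval of -1.48 to 1.57 (two-sided permutation test, p = 0.949). It was 0.222 points at gene ends (interval -0.761 to 1.20), -0.0903 points in gene bodies (-2.29 to 2.11) and 0.174 points between genes (-0.784 to 1.13), with an adjusted p of 0.932 in each. Without cadmium replicate 9 and vehicle replicate 15 the overall difference was 0.226 points (p = 0.756).

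**Figure D4:**
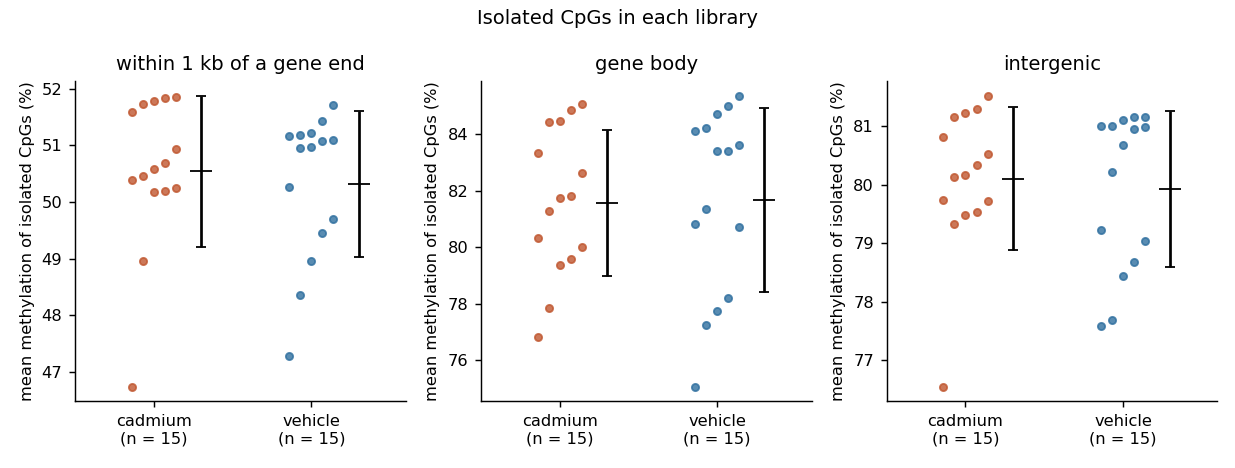
Mean level of isolated CpGs in percent for each library, cadmium (orange) left of vehicle (blue), in the 3 contexts, with a black bar for the group mean and SD (n = 15). The vertical axes do not start at 0 and differ between panels. The groups overlap in each context, and gene body libraries spread from 75.1% to 85.4%.

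The difference between isolated and clustered CpGs did not differ between groups beyond the spread in the main setting either. Between genes, 2 alternative settings gave an unadjusted p under 0.05. At gene ends it was 46.3 points in cadmium and 46.2 points in vehicle libraries, in gene bodies 39.6 and 39.8 points, and between genes 21.3 and 21.5 points, in the same order. The cadmium minus vehicle difference of these values had intervals of -0.839 to 1.20, -2.02 to 1.56 and -1.72 to 1.37 points (permutation test, adjusted p = 0.818 in each context). Between genes the value was -1.05 points (p = 0.0468) without the 6 libraries of 0.09% or more mitochondrial share and -2.32 points (p = 0.0308) with levels taken as the share of all reads. Split by level, isolated CpGs under 20% averaged 6.67% in cadmium and 6.40% in vehicle libraries, those of 20 to 80% averaged 57.3% and 57.1%, and those of 80% or more averaged 93.9% in both. The smallest adjusted p over these classes was 0.971.

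The distance of libraries from their group profile did not differ between groups beyond the spread between mice. The mean absolute deviation of an isolated CpG from its group mean was 9.51 points ± 0.936 in cadmium and 9.89 points ± 1.46 in vehicle libraries. Cadmium minus vehicle was -0.381 points (interval -1.31 to 0.545, p = 0.422), and the adjusted p was 0.43 in each context. Without cadmium replicate 9 and vehicle replicate 15 it was -0.488 points (p = 0.317). The highest deviation was 13.97 points in vehicle replicate 13, and that library also had the largest mitochondrial share. Over the 30 libraries the deviation and this share gave Pearson r = 0.547 (permutation test, adjusted p = 0.00392). Spearman rho was 0.356 (permutation test, adjusted p = 0.144), so the call depended on the measure. Within the groups r was 0.303 in cadmium and 0.676 in vehicle libraries. With every CpG thinned to 10 reads per library, the median SD of isolated CpGs of 20 to 80% was 26.1 points.

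No single isolated CpG passed the test between groups. The logistic model, with Benjamini-Hochberg adjustment over 1125285 CpGs, called 0 of 30968 isolated CpGs tested. Among all tested CpGs it called 0.000533%, with 0.000355% higher and 0.000178% lower in cadmium. The other 325 isolated CpGs exceeded the upper coverage limit in too many libraries. The smallest adjusted p was 0.0522. At an unadjusted p under 0.05, 2142 isolated CpGs (6.92%) passed, against 10.1% of all tested CpGs. Of these, 1050 (3.39%) were higher in cadmium, where 5.32% of all tested CpGs were, and 1092 (3.53%) were lower, where 4.75% were. The test by limma on percent methylation called 0 isolated CpGs, and 978 (3.16%) had an unadjusted p under 0.05, against 1.61% of all tested CpGs. The median difference over isolated CpGs was -0.00089 points, 76.5% lay within 5 points, and 91 differed by 20 points or more.

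The isolated CpGs with the smallest p were mostly at the end of the scale in a whole group. Of the 16 named, 8 higher and 8 lower, 10 had 15 of 15 libraries of a group at 0% or 100%. A CpG 643 bp inside an end of Gm39439 on chromosome 9 at 113910187 to 113910188 ran from 73.0% to 100% with 8 libraries at 100% in cadmium mice, and was at 100% in all 15 vehicle mice. The difference was -7.41 points (adjusted p = 0.0522 by the logistic model, unadjusted p = 0.00701 by limma). A CpG 9571 bp from Psg22, a pregnancy-specific glycoprotein, on chromosome 7 at 18708480 to 18708481 ran from 84.8% to 100% with 10 libraries at 100% in cadmium mice, and was at 100% in all 15 vehicle mice (difference -4.21 points, adjusted p = 0.0522). Both passed the threshold of the logistic model with a minimum of 5 reads (adjusted p = 0.0405 and 0.0419). Both also passed when only CpGs read in all 15 libraries of each group were tested (0.0275 for both). Each had at least 11 reads in all 30 libraries, so its own counts were unchanged in these settings. Only the set of CpGs over which p was adjusted changed. These settings called 14 of 1264996 (0.00111%) and 7 of 414423 (0.00169%) of all tested CpGs. With a minimum of 20 reads neither CpG passed (adjusted p = 0.0752 for Gm39439 and 0.0642 for Psg22, logistic model), and limma gave an adjusted p of 0.92 for each. A group wholly at 100% adds nothing to the dispersion of the logistic model.

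Other isolated CpGs lower in cadmium lay in Shc3, Sptbn4 and Mast4, at an end of Oxr1, and between genes near Rwdd3 and Gm39238, with adjusted p from 0.101 to 0.124. Shc3, an adaptor of receptor tyrosine kinases, had its CpG on chromosome 13 at 51477671 to 51477672, at 85.5%, 94.1% and 100% as lowest, median and highest values in cadmium libraries and 99.2%, 100% and 100% in vehicle libraries. Oxr1, a protein of oxidation resistance, had its CpG 311 bp inside an end on chromosome 15 at 41447793 to 41447794, at 0% in all 15 cadmium libraries and above 0% in 5 of 15 vehicle libraries, where the highest was 6.67%. The difference was -1.78 points with an adjusted p of 0.122.

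Among those higher in cadmium, a CpG in the body of Baz2b, a bromodomain protein of chromatin, on chromosome 2 at 59983733 to 59983734, read 93.1%, 100% and 100% as lowest, median and highest in cadmium libraries and 54.1%, 83.7% and 100% in vehicle libraries. The difference was 15.8 points (adjusted p = 0.115, limma unadjusted p = 0.000268). The CpG 12249 bp from Rnf144a, a ubiquitin ligase, on chromosome 12 at 26294545 to 26294546, averaged 74.2% ± 9.35 in cadmium and 51.3% ± 23.4 in vehicle libraries (adjusted p = 0.149). Its cadmium libraries ran from 54.9% to 86.2% and its vehicle libraries from 0% to 81.7%, so the groups overlapped. The others of this set lay in Pla2g4a, a phospholipase that releases arachidonic acid, in BC049352 and Gm33462, and near Nectin3, Gm553061 and Gm38790, with adjusted p from 0.137 to 0.151. In the 10 CpGs of the 16 with a whole group at 0% or 100%, the reads of that group allow a departure of up to 0.154% at Oxr1 to 0.544% at BC049352.

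Gene lists that fit the exposure and the tissue held isolated CpGs, and none was called. The metal handling list had 37 isolated CpGs in 17 of its 45 genes, with a median level of 92.6%, and 0 of 37 tested were called. The list of oxidative stress had 17 in 9 of 43 genes with 0 called, that of imprinted genes 62 in 23 of 60 with 0 of 60 tested called, and that of spermatogenesis 58 in 29 of 66 with 0 called. Developmental transcription factors had 161 isolated CpGs in 48 of 96 genes, with a median level of 72.5% and 42 CpGs under 20%, and 0 of 160 tested were called. The list of the DNA methylation machinery had 36 in 21 of 42 genes with 0 called. At an unadjusted p under 0.05 the shares were 8.11%, 5.88%, 13.3%, 3.45%, 6.88% and 11.1% in this order of lists, beside 10.1% of all tested CpGs.

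The isolated CpGs with the smallest p in each list are given as values. Slc31a2, a copper transporter, had a CpG 503 bp outside an end on chromosome 4 at 62279890 to 62279891, which averaged 66.6% ± 13.9 in cadmium and 80.8% ± 17.7 in vehicle libraries (adjusted p = 0.424). Slc30a7, which moves zinc into the secretory pathway, had a CpG in its body at 100% in all cadmium libraries and 97.6% ± 5.17 in vehicle libraries (adjusted p = 0.334). Sod2, the mitochondrial superoxide dismutase, had a CpG 205 bp outside an end on chromosome 17 at 13007634 to 13007635, at 2.78% ± 4.83 in cadmium libraries and 0% in all vehicle libraries (adjusted p = 0.207). The CpG in Sesn1, a stress-induced sestrin, averaged 61.4% ± 27.6 in cadmium and 71.9% ± 24.8 in vehicle libraries (adjusted p = 0.589). None of these differences between groups passed the test. The CpGs of Slc31a2 and Sesn1 fell with the mitochondrial share (limma adjusted p = 0.00465 and 0.000599), and those of Slc30a7 and Sod2 did not pass that test.

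The imprinted pair lay in the bodies of Usp29 and Sfmbt2. Usp29, a ubiquitin protease expressed from the paternal copy, averaged 95.8% ± 6.44 in cadmium libraries at its CpG on chromosome 7 at 6841707 to 6841708 and was at 100% in all vehicle libraries (adjusted p = 0.137). Sfmbt2, a Polycomb-group gene of the placenta, averaged 96.2% ± 5.75 in cadmium and 99.93% ± 0.269 in vehicle libraries (adjusted p = 0.178). Spata16, an acrosome protein of spermatids, averaged 91.6% ± 11.9 in cadmium libraries and was at 100% in all vehicle libraries (adjusted p = 0.177). Tdrd1, of the piRNA pathway, averaged 91.1% ± 5.29 in cadmium and 86.5% ± 7.77 in vehicle libraries, at a median of 376 reads (adjusted p = 0.445).

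Of the developmental pair, Tbx4, a limb transcription factor, was at 100% in all cadmium libraries and 98.6% ± 3.38 in vehicle libraries (adjusted p = 0.319), and Sox6 averaged 97.6% ± 4.19 in cadmium and 91.4% ± 9.99 in vehicle libraries (adjusted p = 0.349). In the methylation machinery, Shmt2 encodes the mitochondrial enzyme that passes a carbon unit from serine to folate. Its CpG 98 bp before the gene start averaged 2.06% ± 4.43 in cadmium libraries and was at 0% in all vehicle libraries (adjusted p = 0.275). Its reference sequence holds no other CG within 50 bases.
Shmt2, chr10:127522491-127522592, minus strand, GRCm38.p6: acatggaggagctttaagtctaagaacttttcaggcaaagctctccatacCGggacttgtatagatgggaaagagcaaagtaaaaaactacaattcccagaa

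Isolated CpGs moved with the mitochondrial share of a library, and most of all in gene bodies. This share averaged 0.0586% ± 0.0252 in cadmium and 0.0584% ± 0.0342 in vehicle libraries (p = 0.987). Over the 30 libraries the mean level of isolated gene body CpGs fell by 0.889 points per 0.01% of mitochondrial share, with Pearson r = -0.908 and Spearman rho = -0.910 (permutation p = 1e-05 for both). The adjusted p was 4.72e-05 for r and 6.54e-05 for rho over 85 relations. Within the groups r was -0.849 in cadmium and -0.943 in vehicle libraries, and without vehicle replicates 12 and 13, the farthest from the median share, it was -0.882. Isolated CpGs between genes gave r = -0.691 and rho = -0.80 (adjusted p = 0.000162 for r), and those at gene ends gave r = -0.54 and rho = -0.722 (adjusted p = 0.00586 for r). Without cadmium replicate 9 and vehicle replicate 15 these values were -0.949 in gene bodies, -0.911 between genes and -0.796 at gene ends.

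**Figure D5:**
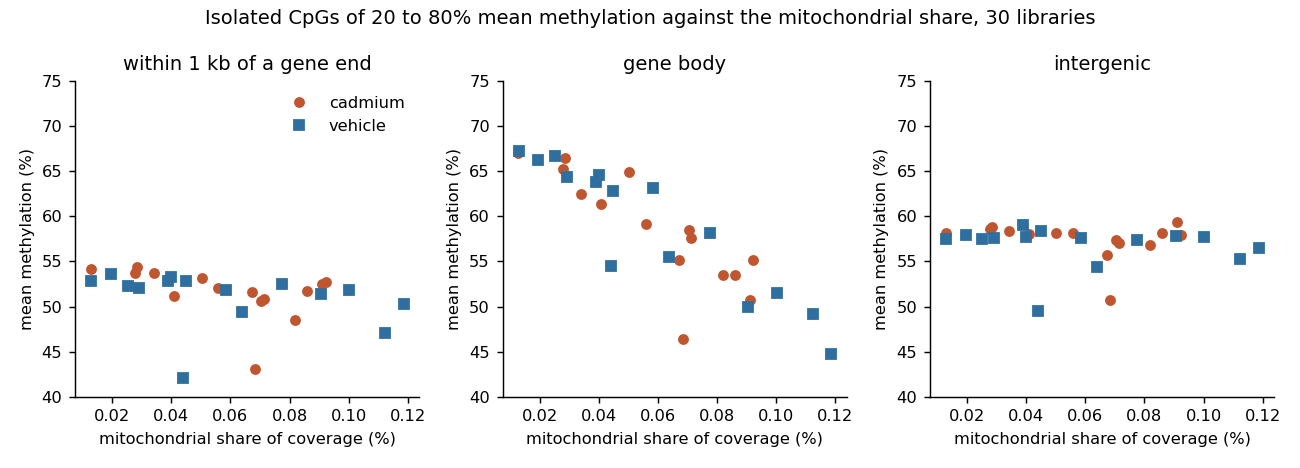
Mean level in percent of isolated CpGs that average 20 to 80%, against the mitochondrial share of coverage in percent, for 15 cadmium (orange circles) and 15 vehicle (blue squares) libraries in the 3 contexts. The vertical axes start at 40%. Gene body CpGs descend from 67.2% to 44.7% along the axis, whereas those between genes lie between 54.4% and 59.4% except in cadmium replicate 9 at 50.7% and vehicle replicate 15 at 49.5%.

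The relation differed between isolated and clustered CpGs. The difference between isolated and clustered CpGs fell with the mitochondrial share at r = -0.932 in gene bodies, r = -0.924 between genes and r = -0.66 at gene ends (adjusted p = 4.72e-05, 4.72e-05 and 0.000309). Clustered CpGs rose with it at gene ends (r = 0.821) and between genes (r = 0.70) and fell in gene bodies (r = -0.616, adjusted p = 0.000998). Among isolated CpGs of 20 to 80%, gene body CpGs gave r = -0.892 and those between genes r = -0.148 (adjusted p = 0.708). Those at gene ends gave r = -0.342 (adjusted p = 0.172) but rho = -0.624 (adjusted p = 0.00136), so there the call depended on the measure. The first component of the 7978 isolated CpGs of 20 to 80% held 30.6% of their variance, correlated with the mitochondrial share at r = 0.942, and did not separate the groups (permutation p = 0.805).

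Fitted CpG by CpG with limma, with the group in the model, 11.4% of isolated CpGs were lower at a higher mitochondrial share at an adjusted p under 0.05, against 3.04% of all tested CpGs, and 3.98% were higher, against 2.31%. Among isolated gene body CpGs of 20 to 80%, 41.1% were lower and 10.6% higher, against 28.5% and 23.5% of clustered ones of that range. Over all contexts, 45.8% of isolated and 49.2% of clustered CpGs of 20 to 80% passed in either direction. At matched level the share that passed was thus similar, and the split by direction differed. Named after their values were seen, the isolated CpG with the smallest p lay 52849 bp from Atp13a3, a membrane ATPase, on chromosome 16 at 30441720 to 30441721. It fell by 5.79 points per 0.01% (adjusted p = 2.55e-08), with a range of 37.4% to 90.2% in cadmium and 28.7% to 98.1% in vehicle libraries. The next among those that were lower lay in the body of Ttpa, which transfers vitamin E, on chromosome 4 at 20024076 to 20024077. It fell by 6.24 points per 0.01% (adjusted p = 1.57e-06), with a range of 35.6% to 97.9% in cadmium and 25.4% to 100% in vehicle libraries. One in Erg, an ETS transcription factor of endothelium and blood, fell by 6.84 points per 0.01% (adjusted p = 1.99e-06). One 19143 bp from Prdm2, a histone methyltransferase gene, rose by 5.83 points per 0.01% (adjusted p = 1.26e-06), with a range of 15% to 68.5% in cadmium and 1.06% to 74.7% in vehicle libraries. In each of these CpGs the ranges of the groups overlapped.

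The level at the gene ends taken for maternally methylated imprinted genes moved with isolated CpGs as well. Over the 30 libraries it correlated with the level of isolated gene body CpGs at r = -0.768 and rho = -0.708 (adjusted p = 4.72e-05 and 0.000162), and at r = -0.677 without vehicle replicates 4 and 13. Its ranges were 5.16% to 22.9% in cadmium and 2.90% to 29.9% in vehicle libraries, and none of the 10 gene ends was at 0%. The part of other cell types' DNA in these relations was not tested. Total coverage and both control sequences gave no relation with an adjusted p under 0.05 among the 85. At a higher mitochondrial share, limma called 24 of 160 isolated CpGs of developmental transcription factors lower and 2 higher, and 4 of 37 in metal handling genes lower and 0 higher. It called 5 of 17 lower and 0 higher in oxidative stress, 8 of 60 lower and 2 higher in imprinted genes, 9 of 58 lower and 4 higher in spermatogenesis, and 7 of 36 lower and 0 higher in the methylation machinery. Beside these counts stand 11.4% lower and 3.98% higher of isolated CpGs, and 3.04% lower and 2.31% higher of all tested CpGs.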

How the data were processed

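Sperm DNA methylation was measured in 15 cadmium and 15 vehicle mice, each a separate library. The submitters' processing notes name methylKit 1.12.0 and Bismark 0.22.3, besides bcl2fastq and Trim Galore 0.5.0. GRCm38 (mm10) is the genome build they list. The deposited tables give each cytosine's coverage as a read count and its methylated fraction, made by the authors. Their product, taken as methylated reads, departed from a whole number by more than 0.1 at no more than 1 cytosine in any library. Both strands of a CpG were summed. Contexts came from RefSeq GRCm38 gene ends. Duplicate reads without molecular identifiers are not separate molecules.

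Single CpGs of chromosomes 1 to 19 and X with 10 reads in 10 libraries of each group were tested with a quasi-binomial logistic model, leaving out values above the 99.9th percentile of a library, with Benjamini-Hochberg adjustment over 1125285 CpGs. The alternative was limma 3.58.1 on percent methylation. Means per library were compared by two-sided permutation tests of 100000 resamples (Python 3.11.15, NumPy 2.4.6, SciPy 1.17.1, R 4.3.3). The model was tested on simulated data. The 8 higher and 8 lower CpGs of smallest p, the 4 most variable per context, the 4 highest at gene ends, the 4 lowest between genes and the 2 of smallest p per gene list were named. Of the last set, 1 is not reported here. The definition of isolated CpGs and the gene lists were chosen with earlier results of these data known.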

Additional observations from a re-analysis of the deposited data

How the results depend on the processing

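No difference in level or spread between cadmium and vehicle libraries passed its test under any alternative, so a change of sign in a value near 0 carries no call. The gene body level difference was 0.00489 points with a 25 bp isolation distance, 0.244 as a share of all reads and 0.188 without cadmium replicate 9 and vehicle replicate 15. With the median over CpGs the level differences were -0.652 over all contexts and -0.555 between genes. Leaving out the 6 libraries of 0.09% or more mitochondrial share (2 cadmium and 4 vehicle) was also an alternative chosen after seeing the data. The level differences were then -0.800 over all contexts, -0.158 at gene ends and -0.283 between genes. The spread differences were then 0.210 over all contexts, 0.209 at gene ends, 0.259 in gene bodies and 0.152 between genes. The group difference in isolated minus clustered level was then -0.274 points at gene ends and -1.05 between genes (unadjusted permutation p = 0.0468). Between genes it was -2.32 as a share of all reads (unadjusted permutation p = 0.0308) and 0.0306 without cadmium replicate 9 and vehicle replicate 15. With a 25 bp isolation distance the correlation with mitochondrial share was -0.0682 at gene ends (p = 0.725) and -0.325 between genes (p = 0.0794). The cause of these changes was not tested.

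The number of isolated CpGs called was 16265 with no dispersion term, which takes reads as independent, and 2 with a minimum of 5 reads, in CpGs read in all 15 libraries of each group, or in CpGs whose SD reached 2 points. Of all tested CpGs these settings called 483988 of 1125285 (43%), 14 of 1264996 (0.00111%), 7 of 414423 (0.00169%) and 11 of 753998 (0.00146%). With at least 20 reads the differences near Gm39786, B3galt4 and Fam83b were 4.13, 8.95 and 2.21 points, none past the test. Replicate numbers gave no clear pairing of the samples. The correlation of same-numbered deviations had a median of 0.0297 over 15 pairs, with a range of -0.182 to 0.523, and 5 were over 0.1. Pairs of unlike number had a median of -0.00389, and 2 cadmium samples matched their own number best. With the replicate block the level difference was 0.0485 points (p = 0.942) and limma called 0 isolated CpGs. Depth limits single CpGs: in the 56 isolated CpGs of 20 to 80% with a median of 10 to 29 reads, 34.1% of values were 0% or 100%.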
